A study of Mus musculus with 4 samples.

Results

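Desert hedgehog signalling between the Sertoli cells and the interstitium of the adult mouse testis was described through 8 genes, namely *Dhh*, *Ptch1*, *Smo*, *Gli1*, *Gli2*, *Gli3*, *Hhip* and *Sufu*, out of 55357 genes counted. The genes were chosen by symbol as the core of the pathway, and none of them took part in sorting nuclei into cell classes. The data were single-nucleus RNA profiles of the testes of male mice of 8 weeks, made with the 3′ kit of 10x Genomics as 2 WT and 2 Dhx37-/- libraries. The Dhx37-/- mice carried *Dhx37* alleles flanked by loxP sites (flox/flox) and the AMH-Cre transgene, whose anti-Müllerian hormone promoter drives Cre in Sertoli cells, so that the other cells of the testis keep the gene. *Dhx37* encodes an RNA helicase of ribosome assembly.

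In the testis, Sertoli cells inside the seminiferous tubule secrete the ligand DHH, which crosses the basement membrane to cells around and between the tubules. On a receiving cell DHH binds the receptor PTCH1 and so releases SMO, the transducer at the primary cilium, after which GLI factors enter the nucleus in their activating form. *Gli1*, *Ptch1* and *Hhip* are transcribed in response and are used as readouts of the signal, HHIP being a decoy that binds the ligand and SUFU a protein that holds GLI factors back. Peritubular myoid cells, the contractile layer around each tubule, and Leydig cells, the source of testosterone, are the known responders in the developing testis.

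The libraries held 51797891 to 75611263 UMIs and gave 8291 to 10027 nuclei each, with a median of 3306 to 4157 UMIs per nucleus. Between 19 and 29 barcodes were shared by any pair of libraries. Nuclei were placed in a class by the expression of at least 4 distinct markers of it, which gave 518 Sertoli, 865 Leydig, 179 peritubular myoid, 465 fibroblast, 502 macrophage, 130 endothelial, 225 spermatogonia, 4220 spermatocyte, 5615 round spermatid, 5859 elongating spermatid and 2382 condensing spermatid nuclei. Condensing spermatids were elongating spermatids with fewer than 2000 UMIs. The peritubular myoid markers are contractile genes such as *Acta2* and *Myh11*, which vascular smooth muscle also expresses. The spermatogonia gate was weak, since 72.4% of its nuclei lay near its limit. No cluster of nuclei was named spermatogonia, and the cluster with most spermatogonia nuclei (55.1%) was named spermatocyte. Values per library are given in the order WT replicate 1, WT replicate 2, Dhx37-/- replicate 1, Dhx37-/- replicate 2 throughout, and the Sertoli gate held 61, 17, 180 and 260 nuclei. *Dhx37* itself had 4, 3, 14 and 16 UMIs in these Sertoli nuclei, or 7.68, 25.5, 11.03 and 7.40 CPM (UMIs of the gene scaled to counts per 1e6 UMIs of the class in that library). A 3′ tag outside the deleted part does not check the deletion. In sums over nuclei, fewer cells of a state within a class and less RNA per cell cannot be told apart.

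Most of the *Dhh* RNA in nuclei of the adult testis lay in late spermatids, and among the somatic classes its mean was highest in Sertoli nuclei, at 33.1 CPM. Of the 6120 *Dhh* UMIs in all nuclei, elongating spermatids held 50.6% and condensing spermatids 21.7%, against 2.63% in Sertoli nuclei. These classes differ in size, with 5859, 2382 and 518 nuclei, and in median depth, with 3403, 1279 and 8006 UMIs. A *Dhh* UMI was found in 30.1%, 33.3% and 24.7% of their nuclei. The receptor and the readouts of the pathway had their highest level outside the tubule. *Ptch1*, *Gli1*, *Gli2* and *Hhip* were highest in peritubular myoid nuclei and *Smo* in fibroblast nuclei. Leydig nuclei held *Ptch1* and *Smo* but only 9 UMIs of *Gli1*, 13 of *Gli2* and 4 of *Hhip*. Between the genotypes, none of the 41 tests on these genes passed the threshold.

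*Dhh*, the ligand of the family that the testis uses, had 16, 2, 57 and 86 UMIs in Sertoli nuclei, which is 30.7, 17.0, 44.9 and 39.8 CPM. All 4 libraries lay above the level expected there from free RNA, the RNA of broken cells that enters every droplet, which was 2.28, 4.06, 5.51 and 3.34 CPM. That expectation was the *Dhh* level in droplets without a nucleus (23.1 to 55.8 CPM) times the share of free RNA in the class, estimated from the spermatid genes *Prm1*, *Prm2*, *Tnp1* and *Tnp2*. In Leydig nuclei *Dhh* stood at 6.43, 9.77, 12.8 and 6.03 CPM, all above an expected level of 3.56 to 5.50 CPM. Fibroblast nuclei held 7.15, 4.93, 18.9 and 4.15 CPM, with 2 of the libraries below the 5.64 to 8.69 CPM expected. Macrophage nuclei, which serve here as a class that should lack the gene, held 14.2, 22.4, 27.7 and 8.66 CPM from 27 UMIs. All lay above an expectation of 6.77 to 10.1 CPM, and WT replicate 2 of the Sertoli nuclei lay within the macrophage range. Only 67.9% of these macrophage nuclei lay in the macrophage cluster, against 82.8% of Sertoli nuclei in the Sertoli cluster. By cluster, *Dhh* had 14 UMIs and a mean of 10.9 CPM (0 to 22.4) in macrophages. The Sertoli cluster held 156 UMIs at 35.5 CPM (24.7 to 48.6), above that range. Endothelial nuclei, with 7 UMIs (3, 1, 2 and 1), also lay above their expected level in all 4 libraries. A level above the expectation was thus not particular to Sertoli nuclei, but its size differed. Sertoli nuclei stood at 17.0 to 44.9 CPM against 2.28 to 5.51 expected, and macrophage nuclei at 8.66 to 27.7 against 6.77 to 10.1. A *Dhh* UMI was found in 24.7% of Sertoli nuclei, 3.70% of Leydig nuclei and 3.19% of macrophage nuclei, at median depths of 8006, 5809 and 2712 UMIs. After each nucleus was thinned to 1000 UMIs, the share in Sertoli nuclei was 1.64%, 0%, 4.05% and 4.71%, and in WT replicate 2 the 0 of 17 nuclei allow a share of nuclei with a UMI at that depth of up to 17.6%, by 3 counts of the total. The thinned share was 1.90%, 1.35%, 2.31% and 0% in macrophage nuclei (the 0 of 126 nuclei allow up to 2.38%). At equal depth the Dhx37-/- libraries of the Sertoli class lay above every macrophage library and its WT libraries did not. These WT shares rest on gates of 61 and 17 nuclei, too few to read the split as a difference between genotypes.

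In late spermatids the CPM of *Dhh* was higher still. Elongating spermatids held 372, 684, 1231 and 809 UMIs, or 150, 177, 143 and 121 CPM, and condensing spermatids held 275, 322, 517 and 213 UMIs, or 364, 545, 422 and 414 CPM. All condensing values lay above all elongating values, which lay above all Sertoli values, while Sertoli and endothelial values overlapped. Round spermatids held a mean of 6.67 CPM and spermatocytes 10.0 CPM, and the CPM of condensing spermatids was 64.9 times that of round spermatids (54.5 to 98.8 times in single libraries). This ratio is a description without a test, because *Dhh* in such nuclei was known from these data beforehand. A *Dhh* UMI was found in 33.3% of condensing nuclei at a median depth of 1279 UMIs, and in 24.1%, 33.4%, 31.1% and 28.6% after thinning to 1000 UMIs. Before thinning it was found in 30.1% of elongating and 2.33% of round spermatid nuclei, at median depths of 3403 and 4068 UMIs. Condensing nuclei were gated below 2000 UMIs, so their CPM divides by totals that the gate limits.

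The *Dhh* level in CPM differed between nuclei of different UMI counts within these stages. When elongating and condensing nuclei were split by UMIs, *Dhh* was 107 CPM ± 28.5 (SD, n = 4 libraries, as for each mean below) at 4000 UMIs and more, 143 ± 22.0 between 3000 and 4000, 227 ± 35.8 between 2000 and 3000, 419 ± 84.1 between 1500 and 2000, 492 ± 57.6 between 1000 and 1500, and 370 ± 161 between 500 and 1000. CPM divides by the UMIs that also define the bins, and in *Dhh* UMIs per nucleus the same bins held 0.508, 0.490, 0.583, 0.711, 0.600 and 0.289. *Gli2* went from 46.1 CPM in the deepest nuclei to 107 CPM between 1500 and 2000 UMIs, while its UMIs per nucleus were 0.217 and 0.180 in these bins. *Sufu* ran the other way, from 304 CPM in the deepest nuclei to 88.4 CPM in the shallowest, and from 1.63 to 0.0739 UMIs per nucleus. *Ung*, a uracil glycosylase gene that leads the cluster of low-RNA spermatids, went from 120 to 738 CPM over the bins in which *Dhh* went from 107 to 492 CPM. UMI count and stage cannot be told apart in these gates.

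A neighbouring gene shares part of the *Dhh* locus. In the GENCODE M21 annotation (GRCm38, used here for neighbours only) *Rhebl1* lies on the same strand and covers 45.9% of the *Dhh* gene body, and *Gm49442* lies on the opposite strand over 24.7% of it. *Rhebl1* had 10, 3, 18 and 45 UMIs in Sertoli nuclei and 3, 6, 8 and 4 UMIs in condensing spermatids. How reads in the shared part were counted is not given in the sources used here, and the part of the Sertoli values that this touches was not tested. *Gm47200* covers 79.3% of *Gli1* on the opposite strand and had a mean of 11.5 CPM in peritubular myoid nuclei.

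The sister ligands were near 0. *Shh* had 0 UMIs in every somatic class and *Ihh*, highest of the classes in spermatogonia, averaged 1.37 CPM there and 0.596 CPM in Sertoli nuclei, so both were below the filter and were not compared.

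*Ptch1*, the receptor of DHH and itself a target of the signal, stood at 1297, 1036, 1076 and 1052 CPM in peritubular myoid nuclei (294, 65, 354 and 170 UMIs). Fibroblast nuclei held 241, 227, 333 and 363 CPM, Leydig nuclei 196, 68.4, 98.1 and 166 CPM, and Sertoli nuclei 63.4, 34.0, 47.3 and 60.2 CPM. The myoid, fibroblast and Leydig values did not overlap, and the order was the same in each library. A *Ptch1* UMI was found in 88.3% of myoid nuclei, 51.2% of fibroblast nuclei, 45.1% of Leydig nuclei and 27.8% of Sertoli nuclei. In myoid nuclei thinned to 1000 UMIs the share was 63.0%, 64.7%, 61.6% and 51.4%. Germ cell classes other than spermatogonia held few UMIs of it, with 43 in 4220 spermatocytes and 27 in 5615 round spermatids.

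*Smo*, the transducer that PTCH1 holds in check, was 143, 138, 108 and 97.6 CPM in fibroblast nuclei, 66.2, 63.8, 79.0 and 80.5 CPM in myoid nuclei and 45.0, 29.3, 46.1 and 41.2 CPM in Leydig nuclei, again without overlap. Sertoli nuclei held 0, 0, 2 and 0 UMIs of *Smo*, although they were the deepest of the somatic classes. The class with the highest somatic share of nuclei with *Dhh* thus had *Smo* UMIs in 0.386% of its nuclei.

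*Gli1*, the activator that responds to the signal, reached 128, 159, 204 and 161 CPM in myoid nuclei and 59.5, 108, 102 and 102 CPM in fibroblast nuclei. It was found in 48.6% of myoid and 27.7% of fibroblast nuclei, against 2, 2, 3 and 2 UMIs in the 215, 78, 279 and 293 Leydig nuclei of the libraries and 0, 0, 1 and 0 UMIs in Sertoli nuclei. *Gli2*, the main activator in receiving cells, stood at 529, 319, 340 and 365 CPM in myoid nuclei and 245, 93.6, 185 and 191 CPM in fibroblast nuclei. Its next level was in condensing spermatids, with 98.0, 137, 84.1 and 81.7 CPM, which overlapped the fibroblast values. Elongating spermatids held 60.9, 68.3, 44.6 and 43.9 CPM of it.

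*Gli3*, mostly a repressor without ligand, had no single leading class. Spermatogonia held 87.9, 65.8, 128 and 166 CPM, fibroblasts 126, 83.8, 100 and 102 CPM and myoid nuclei 83.8, 47.8, 57.8 and 124 CPM, and these values overlapped. Its mean was highest in spermatogonia, 112 CPM ± 44.5, but highest in fibroblasts when Dhx37-/- replicate 2 was left out (103 CPM). *Hhip*, the decoy receptor, stood apart in 1 class. Myoid nuclei held 159, 239, 240 and 248 CPM, and the next class, spermatocytes, held 5.51, 8.03, 7.40 and 7.91 CPM. *Sufu*, the inhibitor of GLI factors, was found in every class and was highest in elongating spermatids with 328, 247, 299 and 308 CPM, above condensing spermatids with 184, 129, 152 and 159 CPM. Its lowest means were 39.1 CPM in Sertoli and 42.4 CPM in Leydig nuclei.

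Of the 179 nuclei in the myoid gate, 158 held *Ptch1*, 87 held *Gli1* and 82 held *Hhip*, and 48 held both *Gli1* and *Hhip*. *Hhip* was found in 55.2% of the nuclei with *Gli1* and in 37.0% of those without, at median depths of 4299 and 3785.5 UMIs. It was found in 50.6% of the nuclei with *Ptch1* and in 9.52% of those without, at median depths of 4074.5 and 3247 UMIs. Fibroblast nuclei differed from this in *Hhip*, which 7 of 465 nuclei held, while 129 held *Gli1*. Of the myoid nuclei, 96.1% lay in a single cluster, and 29.1% lay near the limit of the gate.

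The class contrasts asked where each gene was higher, given the spread left within classes after the library was fitted. UMIs were summed per library and class and fitted together in edgeR with TMM scaling and the library as a block, and p-values from its quasi-likelihood test were adjusted by Benjamini-Hochberg over 17666 genes. Fold changes are log2 values with their standard errors. Each scaling sets its own centre, and the median of all genes moved by up to 0.42 from TMM to DESeq2 size factors or library totals, so that small differences depend on the scaling. The filter on low counts was set over all classes together, so a gene with few UMIs in Sertoli or Leydig nuclei entered through the classes in which it was high. Counts of members that include such genes are descriptions.

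Against Sertoli nuclei, myoid nuclei had 7 of the 8 genes higher and *Dhh* lower, and 4 of those 7, *Smo*, *Gli1*, *Gli2* and *Hhip*, had 6 UMIs or fewer in Sertoli nuclei. In this contrast 29.1% of all genes were called, 12.4% higher and 16.7% lower, and calls that were higher made up 42.6% of all calls under TMM and 51.3% under both other scalings. WT replicate 2 had only 17 myoid nuclei, which entered neither myoid contrast, and the UMIs and ratios of both contrasts are over the other 3 libraries. *Ptch1* was higher by 4.13 ± 0.29 (adjusted p = 5.3e-18), with a ratio of CPM between 17.5 and 22.8 in single libraries. *Gli2* had 291 UMIs against 6, a ratio of 267 (121 to 734), and *Hhip* had 155 against 4, a ratio of 213 (81.7 to 793), where each range in brackets is a 95% counting interval. Sertoli nuclei held 1 UMI of *Gli1* against 122, a ratio of 672 (118 to 26761), and 2 UMIs of *Smo* against 54, a ratio of 149 (39.2 to 1259.5). *Gli3* was higher by 4.09 ± 0.51 and *Dhh* fell by 2.21 ± 0.50 (adjusted p = 3.0e-04). *Sufu* was higher by 0.76 ± 0.27 (adjusted p = 0.027), and this call was lost in each of the 4 fits that left a library out, at 0.45 to 0.62, where the median of all genes moved from -0.12 to between -0.48 and -0.16.

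Fibroblast nuclei gave the same directions against Sertoli nuclei, with 7 genes higher and *Dhh* lower, and the same 4 of them had 7 UMIs or fewer in Sertoli nuclei. The background was 36.3% of genes called, 17.2% higher and 19.1% lower, and calls that were higher made up 47.3% of all calls under TMM and 58.6% under library totals. *Ptch1* was higher by 2.28 ± 0.27 (adjusted p = 3.5e-10), *Gli3* by 4.53 ± 0.45 and *Sufu* by 1.11 ± 0.22. *Gli2* had 341 UMIs against 7, a ratio of 111 (53.1 to 277). The ratio of *Smo* was 237 (64.9 to 1973) and that of *Gli1* 377 (66.7 to 14980.4). *Dhh* fell by 2.16 ± 0.36. *Hhip* was higher by 2.14 ± 0.78 from 9 UMIs against 4 (adjusted p = 0.026), a call lost without WT replicate 1, without WT replicate 2, without Dhx37-/- replicate 1 and without the filter on low counts.

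Leydig nuclei differed from Sertoli nuclei in 4 of the 8 genes, 2 higher and 2 lower, against 36.5% of all genes, 18.7% higher and 17.8% lower. *Smo* had 222 UMIs against 2, a ratio of 86.8 (23.8 to 722), and *Ptch1* was higher by 1.44 ± 0.27 (adjusted p = 9.7e-06), with every library in that direction. *Dhh* fell by 2.04 ± 0.30 (adjusted p = 1.1e-07). *Gli3* had 3 UMIs against 17 and fell by 2.58 ± 0.90 (adjusted p = 0.019), which was no longer called without Dhx37-/- replicate 2 or with no upper limit on genes (-1.89, adjusted p = 0.0695). The 17 UMIs lay in 10 Sertoli nuclei. The Sertoli cluster, which held 82.8% of the gate, had 4 *Gli3* UMIs against 5 in the Leydig cluster. Most of the 17 thus came from gated nuclei outside the Sertoli cluster. *Gli1*, with 9 UMIs against 1, had a ratio of 7.04 (0.976 to 309) and an adjusted p of 0.073. The intervals of *Gli2* (-0.98 to 2.06) and *Hhip* (-1.995 to 1.63) were wide at 13 and 4 Leydig UMIs, and differences of that size were not detectable at this depth.

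Between the interstitial responders, myoid nuclei had 5 of the 8 genes higher than Leydig nuclei and 0 lower, and 4 of the 5, all but *Ptch1*, had 13 UMIs or fewer in Leydig nuclei. The background was 21.3% of genes called, 9.12% higher and 12.2% lower, and the share of calls that were higher went from 42.7% under TMM to 56.8% under DESeq2 size factors and 61.6% under library totals. *Ptch1* was higher by 2.69 ± 0.26 (adjusted p = 8.1e-13), with a ratio of CPM of 6.32 to 10.97 in single libraries. *Gli1* had 122 UMIs against 7, a ratio of 116 (54.8 to 296), *Gli2* had 291 against 13, a ratio of 150 (86.1 to 284), *Hhip* had 155 against 4, a ratio of 259 (99.1 to 962), and *Gli3* had 58 UMIs against 3, a ratio of 129 (42.1 to 644). *Smo* did not pass, at 0.49 ± 0.34 with an interval of -0.20 to 1.17, nor did *Sufu* at 0.34 (-0.17 to 0.86) and *Dhh* at -0.17 (-1.37 to 1.03).

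In the germ line, 3 of the 7 genes other than *Dhh* were called between condensing and round spermatids. Of these, *Ptch1* had means below its level in droplets without a nucleus in both classes. In this contrast 63.6% of all genes were called, 31.5% higher and 32% lower, and calls that were higher made up 49.6% under TMM and 59.4% under library totals. *Gli2* was higher by 3.47 ± 0.27 (adjusted p = 4.6e-16), with a ratio of CPM of 12.96 to 16.3 in single libraries. *Ptch1* was higher by 1.53 ± 0.61 from 13 UMIs against 27 (adjusted p = 0.026), a call lost without WT replicate 1, without either Dhx37-/- library and without the filter on low counts. *Gli3* fell by 1.87 ± 0.63 from 6 UMIs against 133 (adjusted p = 0.0086), which missed the threshold without WT replicate 1 at a similar size (-1.71, adjusted p = 0.0529). In droplets without a nucleus *Ptch1* stood at 6.79 to 14.4 CPM and *Gli3* at 2.55 to 6.21 CPM, and the condensing means, 3.85 and 2.48 CPM, were below these ranges, as was *Ptch1* in round spermatids at 1.14 CPM. The share of free RNA was estimated for somatic classes only, so the *Ptch1* UMIs of both classes were read neither as background nor as expression. *Gli2*, at 100 CPM in condensing nuclei, stood above its 7.81 to 13.7 CPM in such droplets. In round spermatids the *Gli2* mean was 7.14 CPM (5.16 to 10.6), below or within that range. *Sufu* had a fitted difference of 0.01 with an interval of -0.33 to 0.35. *Dhh* and *Gli2* were both found in 117 of the 2382 condensing nuclei, of which 793 held *Dhh* and 261 held *Gli2*, and 12 held *Ptch1*.

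From spermatocytes to round spermatids, *Hhip* fell by 2.37 ± 0.34 (adjusted p = 8.5e-08), *Gli3* fell by 0.98 ± 0.31 (adjusted p = 0.0049) and *Sufu* rose by 0.68 ± 0.16 (adjusted p = 2.6e-04), while *Smo* was called at -2.06 ± 0.43 (adjusted p = 4.3e-05). This was 4 of 8 genes, against 61.5% of all genes, 31.3% higher and 30.2% lower, and calls that were higher made up 51.0% under TMM and 32.2% under library totals. The *Gli3* call was lost without Dhx37-/- replicate 2 (adjusted p = 0.508), and *Sufu* was not called under library totals (0.26, adjusted p = 0.151). *Smo* stood at a mean of 3.76 CPM (2.50 to 4.76) in spermatocytes, overlapping the 2.64 to 3.34 CPM of droplets without a nucleus. In round spermatids its mean was 0.631 CPM, below them, with a ratio of 0.167 to spermatocytes over all libraries. The share of free RNA was not estimated in these classes, so what part of the *Smo* call is expression was not tested. *Hhip* and *Gli3*, at means of 7.21 and 16.3 CPM in spermatocytes, were above their 1.14 to 1.61 and 2.55 to 6.21 CPM in such droplets. The lowest *Gli3* library, at 5.35 CPM, lay within that range. *Sufu*, at 76.7 to 126 CPM in spermatocytes and 110 to 140 CPM in round spermatids, overlapped its 75.8 to 113 CPM in droplets in both classes. *Dhh*, at -0.15 (-0.64 to 0.33), did not pass under TMM but was called lower under library totals (-0.57, adjusted p = 0.0273). Its CPM was lower in round spermatids in 4 of 4 libraries, with a ratio of 0.686 over all of them. Both means, 10.0 CPM in spermatocytes and 6.67 CPM in round spermatids, were below the 23.1 to 55.8 CPM of droplets without a nucleus. What part of these *Dhh* UMIs is background was not tested.

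The other genes of the pathway were read from a list of 54, of which 40 were tested. Against Sertoli nuclei, 12 of the 40 were higher and 3 lower in myoid nuclei, 16 were higher and 3 lower in fibroblast nuclei, and 10 were higher and 6 lower in Leydig nuclei. These calls made up 37.5%, 47.5% and 40% of the 40, beside 29.1%, 36.3% and 36.5% of all genes. The higher ones stand beside 12.4%, 17.2% and 18.7% of all genes called higher, and the lower ones beside 16.7%, 19.1% and 17.8% called lower. The list's median was 0.36, 0.47 and 0.08 in these contrasts, against -0.12, 0.06 and 0.05 for all genes. Of the 6 genes tested from the co-receptor group of the list, 3 were higher in myoid, 4 in fibroblast and 3 in Leydig nuclei than in Sertoli nuclei, and 0 were lower. *Boc*, a co-receptor that presents the ligand to PTCH1, averaged 442 CPM in fibroblast, 251 in myoid, 128 in Leydig and 9.39 in Sertoli nuclei, and was higher than in Sertoli nuclei by 5.53 ± 0.35, 4.97 ± 0.38 and 4.16 ± 0.35. *Cdon*, the related co-receptor, had its highest level in Leydig nuclei, 343 CPM against 46.6 in myoid nuclei, and fell by 3.12 ± 0.39 from Leydig to myoid nuclei (adjusted p = 4.3e-09). *Gas1*, a co-receptor held on the membrane by a lipid anchor, was highest in fibroblast nuclei at 77.5 CPM.

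Among targets and cilium genes of the list, *Osr1* was higher than in Sertoli nuclei by 7.18 ± 0.55 in fibroblast, 4.99 ± 0.78 in myoid and 3.91 ± 0.68 in Leydig nuclei, and *Igfbp6* by 6.76 ± 0.36, 5.04 ± 0.41 and 3.03 ± 0.41. *Bcl2*, which blocks cell death, was higher in myoid than in Leydig nuclei by 4.20 ± 0.29, and *Sfrp1*, a secreted inhibitor of WNT, by 4.00 ± 0.60. *Gpc3*, a proteoglycan that binds hedgehog ligands, was higher in fibroblast than in Sertoli nuclei by 4.78 ± 0.48 and lower in myoid than in Leydig nuclei, where it fell by 2.54 ± 0.69. *Evc*, which acts with SMO at the cilium, had 0 UMIs in Sertoli nuclei and 28, 15 and 18 UMIs in fibroblast, myoid and Leydig nuclei. *Scube2*, which helps release the ligand, had 0 UMIs in myoid and 27 in Sertoli nuclei. Both passed the filter through the classes that hold them, so their calls against a count of 0, which the counts of the list include, are no result of their own.

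From round to condensing spermatids 10 of the 40 were higher and 14 lower, or 60% called beside 63.6% of all genes (31.5% higher and 32% lower). Their median was -0.07 against 0.12 for all genes. The limit of UMI totals given above for this contrast holds here too. *Arrb2*, an arrestin that binds SMO, rose by 4.44 ± 0.37, *Arrb1*, the other such arrestin, fell by 3.63 ± 0.29 and *Btrc*, part of the ligase that processes GLI proteins, fell by 2.93 ± 0.19. *Scube2* fell by 3.39 ± 0.34 and *Bcl2* rose by 2.97 ± 0.42. From spermatocytes to round spermatids 11 were higher and 12 lower, or 57.5% called beside 61.5% of all genes (31.3% higher and 30.2% lower). There *Cdon* fell by 1.83 ± 0.39, *Disp1*, which exports the ligand, fell by 1.74 ± 0.34 and *Boc* rose by 1.55 ± 0.23.

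Between the genotypes, the 8 genes were compared in 10 classes, each with 2 libraries against 2, wherever their counts passed the filter. This gave 41 tests, of which 0 passed an adjusted p of 0.05 in edgeR's quasi-likelihood test and 5, or 12.2%, had an unadjusted p under 0.05, beside 13.2% of all genes tested in the same 10 comparisons. DESeq2 called 0 as well. The lowest adjusted p was 0.143, and an exact permutation test of 2 against 2 libraries cannot go below 0.33. In 16 of the 41 tests, or 39.0%, the CPM of the genotypes did not overlap, 8 higher and 8 lower in Dhx37-/-, beside 44.3% of all genes tested (26.3% higher and 18% lower). The list of 54 gave 272 tests with 0 calls and 33 at an unadjusted p under 0.05, or 12.1%. Values below are the log2 difference of Dhx37-/- from WT with its 95% interval.

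*Dhh* in Sertoli nuclei, the class in which the transgene drives Cre, differed by 0.49 (-0.44 to 1.43, adjusted p = 0.833). Both Dhx37-/- libraries, at 44.9 and 39.8 CPM, lay above the WT libraries at 30.7 and 17.0 CPM, the latter from 2 UMIs, as in 25.8% of genes tested there. The difference ran from 0.24 with no upper limit on genes to 1.40 without WT replicate 1, and passed in none of the alternatives run, where its lowest adjusted p was 0.612. *Ptch1* and *Sufu* were the other genes tested there, and 0% of the 10976 genes tested were called (7.67% at an unadjusted p under 0.05). In elongating spermatids *Dhh* differed by -0.41 (-0.87 to 0.04, adjusted p = 0.407), both Dhx37-/- libraries being lower, and in condensing spermatids by -0.18 (-0.69 to 0.32), with overlap. The call rate was 0% of genes in elongating and 0.0597% in condensing spermatids (13.3% and 14.8% unadjusted), and 17.6% and 20.5% of genes were lower in both Dhx37-/- libraries. *Gli2* was lower in both Dhx37-/- libraries in both of these classes, at -0.65 (-1.13 to -0.17, unadjusted p = 0.0140 in edgeR, adjusted p = 0.280) and -0.56 (adjusted p = 0.364). The same held in round spermatids, at -0.64 (edgeR adjusted p = 0.805), as for 14.3% of genes tested there. In spermatocyte, fibroblast and myoid nuclei the genotypes overlapped for *Gli2*. Without WT replicate 1, *Gli2* (-0.73) and *Dhh* (-0.53) passed in elongating spermatids, in a fit that called 9.38% of all genes, 7.18% lower in Dhx37-/-.

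**Figure D1:**
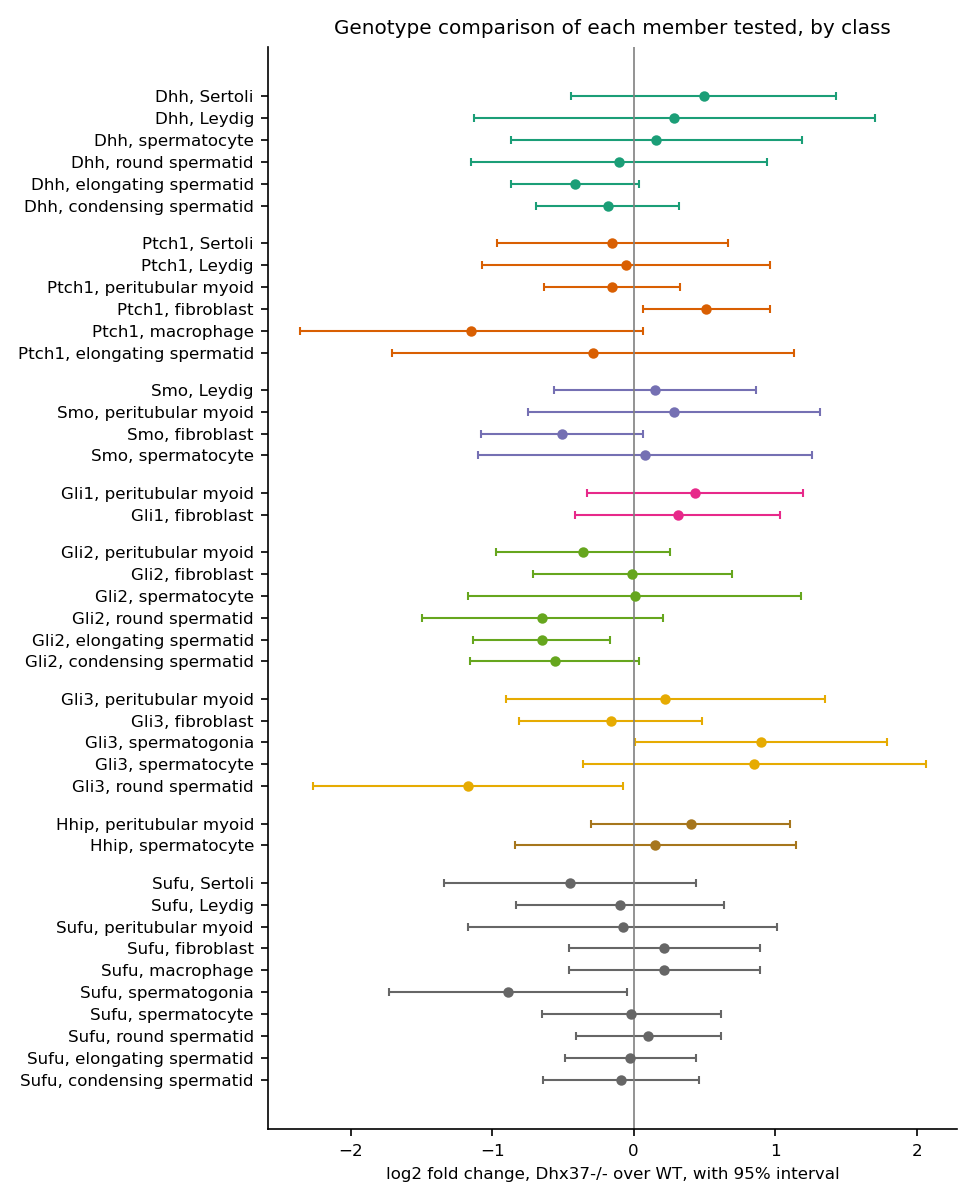
Log2 difference of Dhx37-/- from WT (edgeR, 2 libraries each) for each gene and class tested, with 95% intervals and a line at 0. None of the 41 differences passed an adjusted p of 0.05, and the intervals are 0.898 to 2.84 wide.

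In the receiving classes the readouts showed no called difference. In myoid nuclei *Ptch1* differed by -0.15 (-0.63 to 0.33), *Gli1* by 0.43, *Gli2* by -0.36, *Hhip* by 0.40 (-0.30 to 1.11) and *Smo* by 0.28, and 0% of the 4639 genes tested were called (5.78% unadjusted). The interval of *Ptch1* did not reach a 2-fold change in either direction, while those of *Gli1* and *Hhip* did. For *Gli1*, *Hhip* and *Smo*, 3 of the 7 genes tested, the groups did not overlap, the Dhx37-/- values being the higher ones, beside 34.3% of all genes tested there (18.4% higher and 16% lower). In Leydig nuclei *Ptch1* differed by -0.06 (-1.08 to 0.96), with 0% of genes called (5.33% unadjusted). Its WT values of 196 and 68.4 CPM enclosed both Dhx37-/- values, and the genotypes overlapped for all 4 genes tested there, while 34.1% of all genes did not overlap (20.3% higher and 13.8% lower).

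In fibroblast nuclei *Ptch1* was 0.51 higher in Dhx37-/- (0.06 to 0.96, edgeR unadjusted p = 0.0284, adjusted p = 0.529), with 333 and 363 CPM against 241 and 227 CPM, so that the groups did not overlap. *Smo* differed by -0.51 (-1.08 to 0.07, adjusted p = 0.642), also without overlap, and *Gli1* by 0.31. The call rate in this class was 0.0225% of genes (8.65% unadjusted), and the groups did not overlap in 37.7% of genes (22.8% higher and 14.9% lower). Under a stricter gate of at least 5 markers the *Ptch1* difference was -0.10, where every other alternative kept it between 0.45 and 0.61.

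In the remaining classes, macrophage nuclei held 31 UMIs of *Ptch1* and differed by -1.15 (adjusted p = 0.445), against 0.0116% of genes called (11.9% unadjusted). In spermatogonia *Gli3* differed by 0.90 (edgeR unadjusted p = 0.0486, adjusted p = 0.156) and *Sufu* by -0.89 (unadjusted p = 0.0409, adjusted p = 0.143), in a class where 0% of genes were called and 31.5% had an unadjusted p under 0.05. In round spermatids *Gli3* differed by -1.17 (unadjusted p = 0.0385, adjusted p = 0.780), with 0.0107% called (6.26% unadjusted), and passed without WT replicate 2 (-1.71), where 5.72% of genes were called, 2.08% lower. In spermatocytes it differed by 0.85 (adjusted p = 0.342), with 0% called (25.6% unadjusted), and passed without WT replicate 1 (1.98), where 13.8% were called, 7.85% higher. Endothelial nuclei numbered 6 in Dhx37-/- replicate 2 and were not compared.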

How the data were processed

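The deposited files hold raw UMI counts per gene and droplet, which the authors made with Cell Ranger (7.2.0 in the matrix headers) without normalization or filter. The labels name GRCm38/mm10 and the paper mm39 as the genome build, so no coordinates are given. Whether reads in introns were counted and strand used is not given in the sources used here. Libraries are labelled as biological replicates, and p-values of the genotype comparisons measure the spread between them. Those of the class contrasts measure the spread left after the library block, estimated over all classes together.

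Droplets were called as nuclei by UMI count or by a test against the free RNA (10000 simulations, adjusted p under 0.01), and the study's filter followed (500 to 5000 genes, 500 UMIs or more, mitochondrial UMIs up to 25%). A nucleus entered a class with at least 4 distinct markers of it, an enrichment of their UMIs of 5 (somatic) or 1.5 (germ cell) over all nuclei, and at most 1% mitochondrial UMIs. Doublets were kept, and calls by Scrublet in scanpy 1.11.5 were an alternative. Counts were summed per library and class (at least 20 nuclei, except Sertoli, and except myoid between genotypes, a comparison added after the data were seen) and tested two-sided in edgeR 4.0.16, with DESeq2 1.42.0 as an alternative. The edgeR genotype fit was tried on simulated counts of Sertoli, fibroblast and condensing spermatid nuclei. The class fit was tried on a simulated contrast of fibroblast against Leydig nuclei, which is none of those given above. The other comparisons and DESeq2 were not tried in this way. Intervals of ratios and limits for a count of 0 cover counting error only.

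The genes, the list of 54 and the markers were chosen with earlier results of these data known, and the limits of the gates were set after marker levels were seen. Named pathway genes are at most the 6 with the largest fold among those called in a contrast, with *Shh*, *Ihh*, *Boc*, *Cdon* and *Gas1* always considered. One item is not reported here.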

Additional observations from a re-analysis of the deposited data

Results flagged for a closer look

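For 5 genes both Dhx37-/- libraries lay on opposite sides of both WT libraries in different classes, and in none of these cases was the difference between classes tested. Over the 41 tests of the 8 genes the genotypes did not overlap in 16, or 39.0%, beside 44.3% of all genes tested. *Dhh* differed by 0.49 (log2, Dhx37-/- from WT) in Sertoli nuclei and by -0.41 in elongating spermatids. *Ptch1* differed by 0.51 in fibroblasts and by -1.15 in macrophages, the latter from 31 UMIs. *Smo* differed by 0.28 in peritubular myoid nuclei and by -0.51 in fibroblasts. *Gli3* differed by 0.90 in spermatogonia and by -1.17 in round spermatids. *Sufu* differed by 0.22 in fibroblasts, by 0.22 in macrophages and by -0.89 in spermatogonia. None of these passed the adjusted threshold in edgeR.

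Nuclei outside the classes described also held UMIs of all 8 genes. They held 17.3% of the *Dhh* UMIs in nuclei, 10.7% for *Ptch1*, 18.6% for *Smo*, 14.8% for *Gli1*, 37.9% for *Gli2*, 33.7% for *Gli3*, 25.7% for *Hhip* and 51.1% for *Sufu*.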

How the results depend on the processing

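The number of genes called was within 1.5 times the main number in each class contrast under every alternative. Among the effects of single members in class contrasts, 454 of 480 under other settings and 166 of 192 with a library left out kept their direction and call. The highest class of each gene stayed the same except for *Gli3*. Its class in the main setting, spermatogonia, was the name of no cluster, so clusters in place of gates could not give it. The cluster with 55.1% of the spermatogonia nuclei was named spermatocyte. It held 715 of the 1448 *Gli3* UMIs at a mean of 147 CPM, against 106 CPM in the fibroblast cluster. For *Sufu* the cluster with the highest mean, 387 CPM, had no name and took no part in this check. A few levels moved by more than the spread between libraries, namely *Dhh* in condensing spermatids (300 CPM with the study's filter alone), *Gli3* in spermatogonia (183 CPM under the stricter gate) and *Ptch1* in fibroblasts (364 CPM under the stricter gate). *Sufu* in myoid against Sertoli nuclei also lost its call without a filter, without the library block, and with the 17 myoid nuclei of WT replicate 2 added (log2 0.37). *Gli1* in Leydig against Sertoli nuclei passed when called doublets were left out.

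The genotype comparisons moved more. edgeR called 0 genes in Sertoli, Leydig, myoid, spermatogonia, spermatocyte and elongating spermatid nuclei, 2 in fibroblasts, 1 in macrophages, 2 in round and 6 in condensing spermatids. Without the filter on low counts the numbers were 11 in Sertoli, 17 in Leydig, 8 in myoid, 81 in fibroblast, 124 in macrophage, 399 in spermatogonia, 2043 in spermatocyte, 53 in round, 271 in elongating and 63 in condensing spermatid nuclei. DESeq2 called 1 in Leydig, 0 in fibroblast, 13 in macrophage, 130 in spermatogonia, 772 in spermatocyte, 16 in round, 50 in elongating and 19 in condensing spermatid nuclei. DESeq2 size factors gave 18 in condensing spermatids and library totals 2 in spermatogonia. The study's filter alone gave 0 in condensing spermatids. Without the upper limit on genes there were 6 in fibroblasts, 0 in macrophages, 330 in spermatogonia and 2615 in spermatocytes, and without doublets 5 in myoid nuclei, 6 in fibroblasts, 0 in macrophages and 537 in spermatogonia. The stricter gate gave 0 in fibroblasts and 11 in condensing spermatids. The cause of these shifts was not tested. With a library left out, which takes the lone library of a genotype to vary like the other pair, the counts ranged from 0 to 227 in Sertoli, 0 to 285 in Leydig, 1 to 45 in myoid, 9 to 397 in fibroblast, 32 to 366 in macrophage, 0 to 574 in spermatogonia, 26 to 2967 in spermatocyte, 4 to 1141 in round, 3 to 1936 in elongating and 4 to 1235 in condensing spermatid nuclei. The highest number came in every class without WT replicate 1 or without WT replicate 2.

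The labels do not say that libraries with the same replicate number belong together, and the correlation of their deviations ran from -0.39 to 0.25 over 10 comparisons. With the replicate number as a block, edgeR called 14 genes in myoid, 64 in fibroblast, 0 in macrophage, 82 in spermatogonia, 1 in spermatocyte, 95 in elongating and 65 in condensing spermatid nuclei, and 0 of the 41 tests on the 8 genes passed. With the numbers crossed in the block it called 1 in Sertoli, 5 in Leydig, 5 in fibroblast, 87 in macrophage, 1174 in spermatogonia, 4889 in spermatocyte, 35 in round, 223 in elongating and 236 in condensing spermatid nuclei, *Gli3* in spermatocytes among them.

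Of the genotype differences of the 8 genes, 371 of 405 kept their direction and call under other settings and 123 of 164 with a library left out. In Leydig nuclei *Ptch1* turned to 0.024 without a filter, 0.030 with the block and 0.047 with the crossed block. It turned to 0.061 in Sertoli nuclei without doublets, and under the stricter gate to 0.19 in myoid nuclei and -0.10 in fibroblasts, where *Sufu* turned to -0.015. With a library left out *Ptch1* ranged from -0.40 to 0.78 in Sertoli, -0.52 to 0.85 in Leydig and -0.32 to 0.080 in myoid nuclei, *Gli2* from -0.63 to 0.18 in myoid nuclei and *Gli1* from -0.12 to 0.72 in fibroblasts. Each of these changed direction without WT replicate 1, and *Ptch1* in Sertoli and Leydig nuclei also without Dhx37-/- replicate 1. *Dhh* in condensing spermatids ranged from -0.44 to 0.18 and changed direction without WT replicate 2. Among the classes compared between genotypes, the Sertoli and myoid sums of WT replicate 2 rest on the fewest nuclei, 17 each.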

Other observations

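The genes whose mean levels over the 11 classes were most like those of a member were named by Pearson's r of log2(CPM + 1) among 20212 genes with at least 200 UMIs in gated nuclei. These are descriptions over 11 classes of the same 4 libraries. For *Dhh* they were *Vgf* (r = 0.991), *Gm43852* (0.988) and *Brpf3* (0.978), while *Ung* stood at 0.913. For *Ptch1* they were *2610008E11Rik* (0.991), *Araf* (0.978) and *E230016M11Rik* (0.976), and for *Smo* *Hccs* (0.974), *Klhl13* (0.970) and *Setd7* (0.969). *Gli1* was most like *Cyp26b1* (0.984), which encodes an enzyme that degrades retinoic acid, then *Gm28694* (0.978) and *Prrx1* (0.977). *Hhip* was most like *Adgrg2* (0.982), *Mylk* (0.971), a kinase of smooth muscle contraction, and *Alpl* (0.962). *Gli2* was most like *Hr* (0.931), *Lypd6* (0.925) and *Mrc2* (0.917), *Gli3* like *Gucy1a2* (0.900), *Zfp354c* (0.897) and *Phldb1* (0.881), and *Sufu* like *Gm14803* (0.978), *Cd109* (0.971) and *Rab27b* (0.970).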
